A study of Bos taurus with 16 samples.

Results

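The corpus luteum, the gland that forms in the ovary from the follicle after ovulation and secretes progesterone, was compared between cows before and after day 40 in 16 Japanese Black animals. The early side held 8 glands: 4 from non-pregnant, cyclic animals on estrous cycle days 10-12 and 4 from cows pregnant for 20-25 days. The late side held 8 glands from pregnant cows, 4 on days 40-45 and 4 on days 150-160. The labels count the day of insemination as day 1, give no treatment or genetic alteration, and state 4 animals for each stage, sampled shortly after slaughter. The sides were formed from those labels alone, and together they cover all 16 arrays of the series. The 4 cyclic early glands came from cows that were not pregnant and every late gland was older than every early one, so gland age, stage of pregnancy and the presence of pregnancy cannot be told apart across the sides. On both slides the early arrays lay in row 1 and the late arrays in row 2, so the row on the slide and the side cannot be told apart either.

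In cattle the corpus luteum regresses at the end of a cycle without pregnancy, when the uterus releases pulses of prostaglandin F2 alpha, and luteal oxytocin takes part in the signalling between gland and uterus. An embryo that is recognised by the mother, through interferon tau from the trophoblast, stops those pulses, and the same gland is then kept as the gland of pregnancy. Its steroid-producing cells lie among endothelial cells, pericytes, fibroblasts and immune cells, which all add RNA to a sample of whole tissue. In such a sample fewer cells of a type and less RNA per cell cannot be told apart.

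RNA was hybridised to 1-colour oligonucleotide arrays, and a level here is the log2 of the deposited processed signal of a probe minus that array's 75th percentile, so that 1 unit is a 2-fold difference. The 75th percentile lay between 2020 and 4288 signal units, and between 71.9% and 79.6% of the probes were well above background per array. The luteal markers STAR, CYP11A1, HSD3B1, LHCGR, PTGFR, OXT, FDX1 and SCARB1 were well above background on all 16 arrays. Median background was 57.06 in the early and 54.25 in the late arrays (exact permutation test, two-sided p = 0.0224 for 8 against 8 arrays). The 75th percentile, the share of probes above background, the negative controls, the bright corner spots and the subtracted spatial trend gave p between 0.217 and 0.804 in the same test. The part of the background difference in the results below was not tested. Spike-in controls lay at background on most arrays, with 0% to 18% of their spots well above it, and could not serve to compare the rows. With 4 arrays in a group precision is limited by their number, and p-values measure the spread between these cows.

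Across the 11940 probes tested, the late side differed from the early side in 742 (6.21%) at an adjusted p under 0.05, 312 higher (2.61%) and 430 lower (3.6%), by limma with slide as a block and Benjamini-Hochberg adjustment. Of those 742 probes 244 differed at least 2-fold and 383 have a gene symbol. The difference between days 40-45 and days 20-25 had the same sign as the whole difference in 718 of them. It was the largest of the 3 neighbouring differences in 338 (45.6%), against 209 for days 20-25 minus cyclic and 195 for days 150-160 minus days 40-45. The contrast itself gives the middle difference the most weight. Leaving out any of 5 single arrays moved the count by more than 1.5 times: it fell to 470 without days 20-25 replicate 1, 462 without days 20-25 replicate 2, 450 without days 40-45 replicate 1, 456 without days 40-45 replicate 2 and 462 without days 150-160 replicate 2. Within slide 1, which holds 2 arrays of each group, 121 probes passed, and within slide 2, which holds as many, 7 did.

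Few of these differences were switches. In 64 of the 742 probes (0.536% of the probes tested, 26 higher and 38 lower) the 8 late levels and the 8 early levels did not overlap, out of 66 (0.553%) without overlap whether called or not. In 23 of the 64 every difference between a late and an early group was at least 2-fold. These 23 were split by what happened within the sides. In 10 probes (0.0838% of those tested, 3 higher and 7 lower) both differences within a side were smaller than 50% of the step between days 20-25 and days 40-45, and these are called switched and held. In the other 13 (0.109%, 10 higher and 3 lower) the level also moved by at least 50% of the step within a side, and these are called gradual. Without days 20-25 replicate 3 the count of probes that switched and held was 19, and without days 40-45 replicate 4 it was 16. It was 14 within slide 1, 2 of them among the 10, and 0 within slide 2. With quantile normalization it was 12, 6 higher and 6 lower, of which 8 were among the 10.

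**Figure D1:**
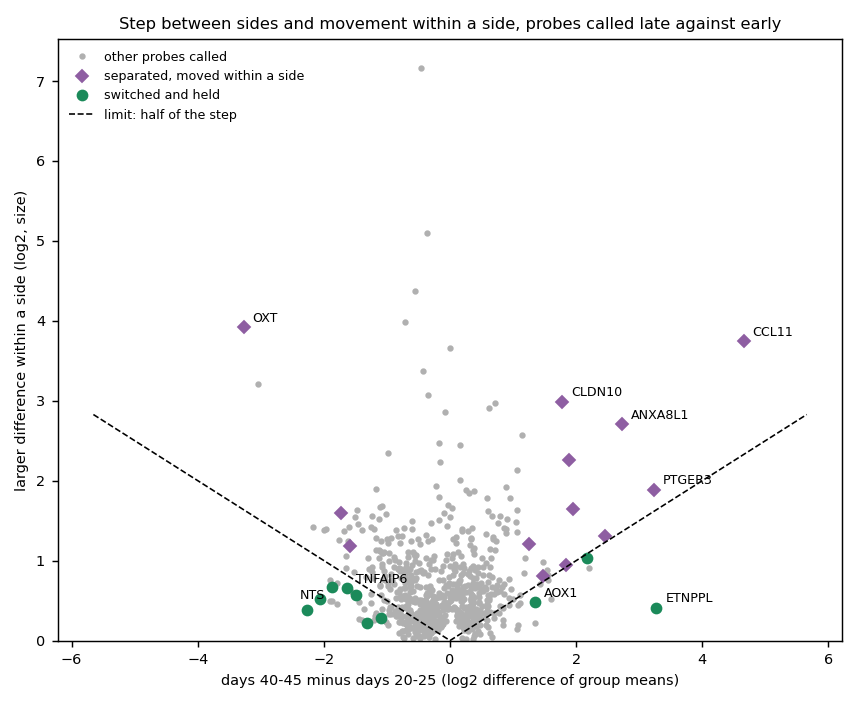
Step and hold among the 742 probes called late against early: the x axis gives the log2 difference of group means between days 40-45 and days 20-25, and the y axis the larger of the 2 differences within a side, as a size. Green circles are the 10 probes that switched and held, purple diamonds the 13 gradual ones and grey points the rest; the dashed lines mark 50% of the step. CCL11 lies farthest to the right, and it and OXT lie above the dashed lines.

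Of the 10 probes that switched and held 6 have a gene symbol: ETNPPL and AOX1 were higher late, and NTS, TNFAIP6, ESR2 and PRR11 were lower. The other 4 have none in the names used here, 1 of them higher and 3 lower. Shown here are the 60-base probe sequences, 5' to 3' as deposited, of a pair of unnamed members and of TNFAIP6. TNFAIP6 was the named fall with the smallest adjusted p among those above background on all 16 arrays. The array design describes ABR4402 as similar to a Sox6-binding protein called Solt and ABR7215 only as a transcribed locus moderately similar to a known protein.
ABR7215: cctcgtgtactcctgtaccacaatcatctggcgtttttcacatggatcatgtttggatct
ABR4402: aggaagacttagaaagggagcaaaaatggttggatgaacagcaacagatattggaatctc
TNFAIP6: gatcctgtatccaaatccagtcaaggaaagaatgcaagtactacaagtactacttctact

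ETNPPL, the enzyme that breaks down phosphoethanolamine, was 11.2-fold higher late. Its levels were -5.83, -5.11, -4.43 and -4.56 in the cyclic cows and -3.77, -4.49, -2.99 and -8.54 on days 20-25. They were -2.01, -1.43, -1.82 and -1.46 on days 40-45 and -1.22, -1.88, -1.37 and -0.62 on days 150-160. Every late gland lay above every early one, as the choice of probes required. The lowest early value, that of days 20-25 replicate 4, was not well above background. The difference was 3.49 (SE 0.62, 95% interval 2.16 to 4.82, adjusted p = 0.00603). Within the sides the differences were 0.04 (95% interval -1.85 to 1.92) and 0.41 (-1.47 to 2.29), intervals wide enough to hold large movements either way. The first of these rests on days 20-25 replicate 4. Without it that group ran from -4.49 to -2.99, and ETNPPL did not meet the limit on movement within a side. The dim value also enters the 11.2-fold, and with dim signals raised late minus early was 3.20 (limma, adjusted p = 0.000612).

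AOX1, aldehyde oxidase, a molybdenum enzyme that oxidises aldehydes and many nitrogen-containing ring compounds, rose 3.31-fold and was well above background on every array. The cyclic cows had levels of 0.94, 1.78, 1.97 and 1.63, and the cows on days 20-25 had 2.05, 1.22, 2.55 and 2.42. On days 40-45 the levels were 3.61, 3.12, 3.42 and 3.50, and on days 150-160 they were 3.44, 3.89, 3.67 and 3.74. The highest early gland, at 2.55, lay 0.57 below the lowest late one. Late minus early was 1.73 (SE 0.17, adjusted p = 0.000158), and the rise passed within each slide too, by 2.02 in slide 1 and 1.44 in slide 2. The differences within the sides were 0.48 (95% interval -0.04 to 1.00) and 0.28 (-0.24 to 0.79).

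The unnamed probe ABR7215 was 4.2-fold higher late, with levels of 1.37, 1.6, 2.05 and 1.68 in cyclic cows and 1.14, -0.07, 1.67 and -0.17 on days 20-25. It reached 2.67, 3.17, 2.45 and 2.99 on days 40-45 and 3.41, 3.64, 3.44 and 4.07 on days 150-160. The early minimum lay on days 20-25, in replicates 2 and 4, so that the step from days 20-25 (2.17) was larger than the difference from the cyclic cows. It is the only probe that both switched and held with a rise and passed in the step alone (late minus early 2.07, SE 0.25, adjusted p = 0.00066; step adjusted p = 0.0474). Within the sides its differences were -1.03 (95% interval -1.79 to -0.27) and 0.82 (0.06 to 1.58). Neither passed after adjustment (limma, adjusted p = 0.185 and 0.441), but both intervals excluded 0.

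Among the falls, NTS, the precursor of the peptide neurotensin, was 5.43-fold lower late. Cyclic glands had levels of -0.26, 1.29, 1.08 and 1.85, and glands on days 20-25 had 1.04, -0.39, -0.12 and 1.88. On days 40-45 they had -3.24, -1.75, -1.02 and -0.62, and on days 150-160 -2.33, -0.53, -0.73 and -2.93. The lowest early level was -0.39 and the highest late one -0.53, so the sides were narrowly separated and the spread within each group was wide. Late minus early was -2.44 (SE 0.47, adjusted p = 0.0098). The means of the late groups were -1.66 and -1.63, with a 95% interval of -1.41 to 1.47 for their difference.

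TNFAIP6, also known as TSG-6, a secreted hyaluronan-binding protein made by granulosa cells around ovulation and in inflamed tissue, fell 4.44-fold. Its levels were 2.63, 0.80, 1.46 and 1.92 in cyclic cows and 1.25, 1.49, 1.04 and 1.47 on days 20-25. They were -0.41, -0.30, -0.69 and 0.13 on days 40-45 and -1.17, -1.10, -0.99 and -0.60 on days 150-160. All 8 late glands lay below all 8 early ones, as the choice of probes required, and all 16 were well above background. The test gave -2.15 ± 0.22 (SE), adjusted p = 0.000194, with -2.29 within slide 1 and -2.01 within slide 2, neither of which passed on 8 arrays (adjusted p = 0.061 and 0.0634). Days 150-160 minus days 40-45 was -0.65 (95% interval -1.32 to 0.02).

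ESR2, estrogen receptor beta, had the smallest adjusted p of the 10 but lay near background. Cyclic levels were -6.35, -6.40, -7.14 and -6.38, and levels on days 20-25 were -7.84, -7.45, -7.00 and -6.67. Late levels were -9.34, -9.25, -8.66 and -9.18 on days 40-45 and -8.50, -8.69, -8.98 and -8.81 on days 150-160. The probe was well above background on 3 of the 8 early arrays, all cyclic, and on 0 of the 8 late arrays, so the late levels are only a bound and no fold is given. Late minus early was -2.02 (SE 0.18, adjusted p = 6.47e-05). With signals not above background raised to the lowest signal that was, it was -0.05 (adjusted p = 0.872). Within the sides the differences were -0.67 (95% interval -1.22 to -0.13) and 0.37 (-0.18 to 0.91).

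PRR11, a proline-rich protein linked to cell division, fell 2.76-fold. Levels were -2.01, -2.80, -3.50 and -3.22 in cyclic cows, -2.60, -3.30, -3.54 and -2.97 on days 20-25, -4.14, -5.07, -4.81 and -3.66 on days 40-45 and -4.21, -5.40, -3.94 and -4.44 on days 150-160. The sides came closest between -3.54 in an early and -3.66 in a late gland. The fall was -1.47 ± 0.28 (SE), adjusted p = 0.0096, and the difference was -2.03 within slide 1 and -0.90 within slide 2, neither of which passed.

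The unnamed probes ABR2895 and A_73_115989 fell 3.37-fold and 2.41-fold, and both were well above background on every array. ABR2895 had levels of -1.54, -1.86, -2.06 and -2.51, then -1.65, -1.96, -2.09 and -1.83, then -2.66, -5.66, -3.74 and -3.73 and then -3.69, -3.78, -2.94 and -3.32 in the 4 groups in order of day. Its lowest early level was -2.51 and its highest late one -2.66, and 1 late gland, days 40-45 replicate 2, lay far below the rest. A_73_115989, which the array design lists as similar to the human gene C5orf13, had 0.83, 0.54, -0.67 and -0.69, then -0.48, -0.19, -0.64 and 0.18, then -1.24, -1.26, -1.54 and -1.47 and then -0.92, -1.57, -1.98 and -1.28. Late minus early was -1.75 ± 0.33 (SE), adjusted p = 0.00855, for ABR2895 and -1.27 ± 0.20 (SE), adjusted p = 0.00358, for A_73_115989.

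The unnamed probe ABR4402 had early levels between -6.92 and -5.66 and late levels between -8.70 and -6.95. It was well above background on 6 early arrays and on 0 late ones, so only a bound is given, at least 1.25-fold lower late. The bound takes the late mean at the lowest signal above background on each array and has no test of its own. The fitted difference was -1.73 (limma, adjusted p = 0.00388). With dim signals raised to the lowest signal above background it was -0.35 and did not pass (adjusted p = 0.294).

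Under 29 other settings, which include leaving out each of the 16 arrays, AOX1 passed late against early in 29, ABR7215 and A_73_115989 in 28, and NTS, ABR2895, TNFAIP6 and PRR11 in 27. ETNPPL passed in 27 of 28, and ABR4402 and ESR2 in 26 of 28, since the setting limited to probes above background on all arrays leaves these 3 out. None of the 10 lost that call when a single array was left out, and the switch with its hold was counted separately. It was met under 27 of the 29 settings by NTS, ABR2895 and AOX1, 26 by TNFAIP6 and PRR11, 25 by ETNPPL and A_73_115989, 24 by ABR7215, 22 by ESR2 and 20 by ABR4402. These counts overstate how far the switch was put to the test. Its overlap, size and hold conditions rest on single levels and plain group means. Settings that changed only model terms or weights, or tested more probes, could therefore alter only the call. The deposited value table departed by at most 0.0046 from the signals used here, and leaving out an array could not create an overlap. Without days 20-25 replicate 4 only 7 of the 10 met the switch with its hold, and ETNPPL was among those that did not. Of the 10, only ABR7215 and ESR2 passed in the step between days 20-25 and days 40-45 taken alone. For ESR2 no array of either of those groups was well above background. None of the 10 passed within a side after adjustment. The choice of probes had already limited both differences within a side, so this does not test the hold. A difference that did not pass also does not show that the level stayed the same. The unadjusted 95% intervals excluded 0 within both sides for ABR7215 and within the early side for ESR2. Just inside the limit on movement within a side was ABR7215, whose larger movement was 0.474 of its step. Just outside lay SERPINA1 at 0.513, B3GAT2 at 0.532, CNGA2 at 0.548 and PTGER3 at 0.584.

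**Figure D2:**
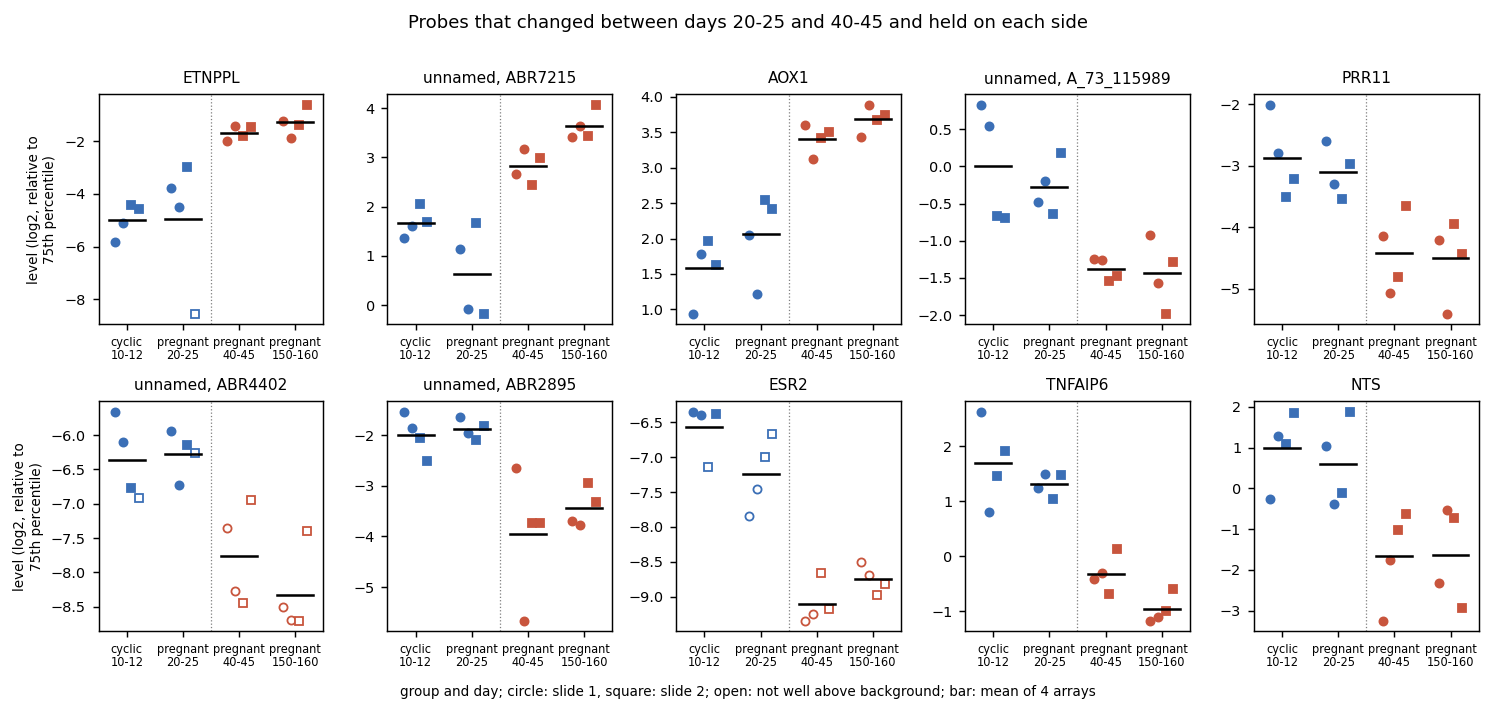
Levels of the 10 probes that switched and held, 1 panel each: the y axis gives the level (log2, relative to the array's 75th percentile, own scale per panel) and the x axis the 4 groups with their days. Each point is 1 gland, blue early and red late, circles slide 1 and squares slide 2, open where not well above background, and the bar is the mean of 4. In every panel the red points lie on one side of the blue ones, as the choice of probes required.

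A further 11 probes held without overlap but with at least 1 difference between groups under 2-fold; this set was chosen after its values were seen. HDAC2, a histone deacetylase, fell by 0.92 (adjusted p = 0.00231), with late levels of -7.10 to -6.27 against -6.05 to -5.31, and was well above background on 3 of the 8 late arrays. SLC7A7, a carrier of basic amino acids, fell by 0.75 (adjusted p = 0.00776). VSIG4, a complement receptor of tissue macrophages, fell by 0.65 (adjusted p = 0.0182), from -1.58 to -0.70 early to -2.49 to -1.66 late. RASSF2, a Ras-association protein, differed by -0.58, and H3-3A, which encodes the replacement histone H3.3, by -0.46. The rises were KIAA1217 at 1.03, IGIP at 0.59 and SPRYD4 at 0.36. The other 3 probes have no symbol, 1 higher and 2 lower.

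The 13 gradual probes include the 3 largest differences among all 11940 probes, those of CCL11, OXT and PTGER3. OXT, oxytocin, a peptide made in quantity by luteal cells of the cycle, fell 49.2-fold. Its levels were 6.47, 5.64, 5.04 and 6.03 in cyclic cows and 5.03, 5.35, 4.40 and 5.32 on days 20-25. They were 0.79, 1.87, 2.35 and 1.99 on days 40-45 and -2.28, -0.77, -3.03 and -2.60 on days 150-160. The differences between neighbouring groups were -0.77, -3.27 and -3.92, and the last 2 each passed alone (limma, adjusted p = 0.0356 and 0.00887). Late minus early was -5.62 ± 0.32 (SE), adjusted p = 1.46e-06, and the fall was -5.73 within slide 1 and -5.51 within slide 2, both passing.

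CCL11, eotaxin, a chemokine that attracts eosinophils, had the largest of these differences. It was not well above background in the 4 cyclic glands, at -9.39, -9.22, -9.17 and -9.08, and had -5.14, -9.15, -5.99 and -4.0 on days 20-25, where replicate 2 was also dim. It reached -2.03, 1.05, -2.70 and -1.98 on days 40-45 and 2.22, 3.11, 1.79 and 2.19 on days 150-160. The fitted difference of 8.10 ± 0.67 (SE), adjusted p = 3.60e-05, rests on those dim signals. With them raised to the lowest signal above background it was 6.66 (adjusted p = 1.04e-05).

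PTGER3, the EP3 receptor for prostaglandin E2, rose 28.6-fold and passed in the step alone. Cyclic levels were -8.05, -6.70, -6.08 and -4.98, and levels on days 20-25 were -4.69, -5.38, -3.99 and -4.22. Late levels were -0.66, -1.64, -1.56 and -1.50 on days 40-45 and -0.62, 0.43, -0.25 and 0.40 on days 150-160. The nearest early and late glands lay 2.35 apart. Late minus early was 4.84 ± 0.33 (SE), adjusted p = 7.05e-06, and the step was 3.23 (adjusted p = 0.0364). Days 20-25 minus cyclic was 1.89, which did not pass (adjusted p = 0.086).

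CLDN10 and ANXA8L1 encode a tight-junction claudin and an annexin, and both were higher late. CLDN10 was not well above background on any early array and was so on 2 of 4 arrays of days 40-45, where its levels were -5.94, -7.01, -7.76 and -6.13. On days 150-160 it had -2.88, -3.95, -3.71 and -4.35, above all 4 earlier late glands, and that later step of 2.99 passed alone (limma, adjusted p = 0.00887). As a bound without its own test, CLDN10 was at least 2.99-fold higher late than early. The fitted difference was 3.63 (limma, adjusted p = 8.13e-06), and 1.76 with dim signals raised (adjusted p = 0.000556). ANXA8L1 had group means of -6.71 ± 1.61, -6.08 ± 1.52, -3.36 ± 0.82 and -0.65 ± 0.88 (SD, n = 4 each). Neither of its intervals after day 25 passed alone (adjusted p = 0.233 and 0.177). Its whole difference was 4.39 ± 0.49 (SE), adjusted p = 0.000401, and 4 of its 8 early arrays were well above background.

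SERPINA1, alpha-1-antitrypsin, the secreted inhibitor of neutrophil elastase, was not well above background on any early array and was so on all 8 late ones. Its late levels ran from -6.49 to -4.37 against early ones of -9.39 to -6.80, at least 2.78-fold higher. The fitted difference was 2.70 (limma, adjusted p = 0.000381), and 1.47 with dim signals raised (adjusted p = 0.00336). ADAMTSL3, a secreted matrix protein, was above background throughout and had group means of -2.50, -1.30, -0.04 and 0.98, a climb over all 4 groups (late minus early 2.37 ± 0.29 (SE), adjusted p = 0.000748). B3GAT2, a glucuronyltransferase of surface carbohydrates, had -6.71, -5.84, -3.40 and -2.09 (late minus early 3.54 ± 0.42 (SE), adjusted p = 0.00056).

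DAPL1, CNGA2, the unnamed ABR5060, NDP and the unnamed ABR8836 make up the rest. DAPL1 had late minus early 2.92 ± 0.29 (SE), adjusted p = 0.000179, with group means of -7.25 and -7.43 before and -5.55 and -3.30 after. It was well above background on only 2 of the 8 early arrays, and with dim signals raised the difference was 2.36 (limma, adjusted p = 0.000238). CNGA2, a subunit of the cyclic nucleotide-gated channel known from olfactory neurons, had 1.98 ± 0.28 (SE), adjusted p = 0.00195. ABR5060, dim on all 8 early arrays, was at least 2.14-fold higher. Its fitted difference was 2.74 (limma, adjusted p = 0.000371), and 1.18 with dim signals raised (adjusted p = 0.00154). NDP, norrin, a secreted ligand of the frizzled-4 receptor, fell from early levels of -5.20 to -0.73 to late levels of -7.53 to -5.24 (-2.42 ± 0.52 (SE), adjusted p = 0.0167). Its call was lost with normexp background correction and within each slide. ABR8836 fell with -2.64 ± 0.57 (SE), adjusted p = 0.0168. Of the 13 gradual probes 11 moved by at least 50% of the step within the late side and 4 within the early side.

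**Figure D3:**
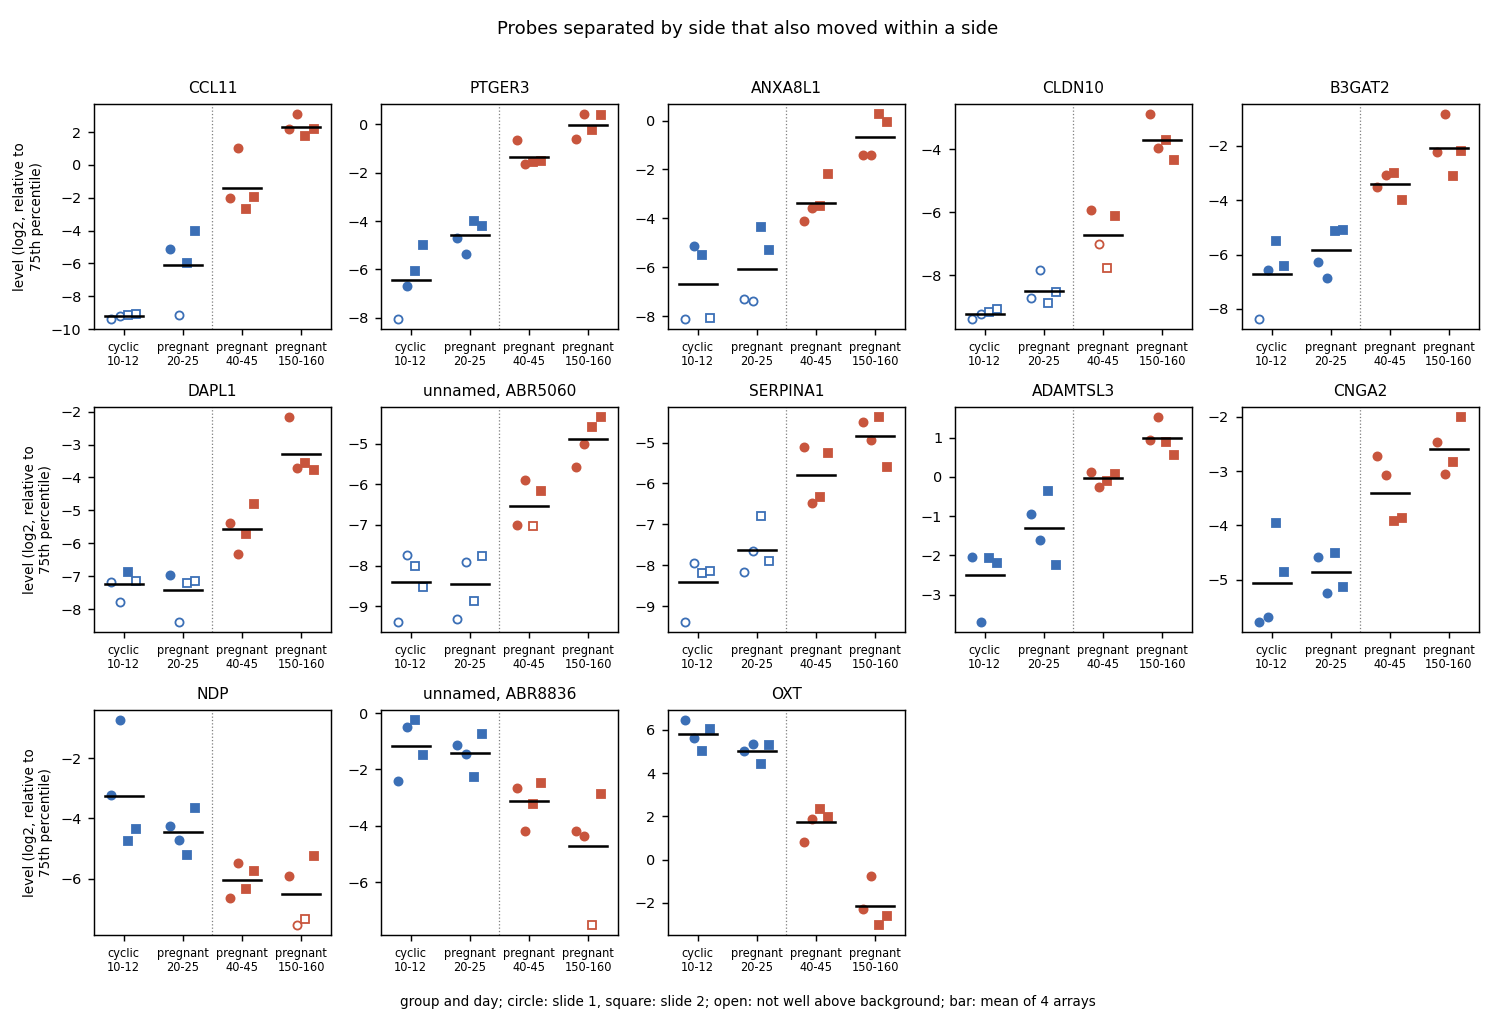
Levels of the 13 gradual probes, 1 panel each, drawn as for the probes that switched and held: y axis level (log2, relative to the array's 75th percentile, own scale per panel), x axis group and day, points single glands, bars means of 4. Red late points lie above the blue early ones in 10 panels and below them in 3, a separation that the choice of probes required. In CLDN10, DAPL1 and OXT the days 150-160 group lies apart from days 40-45.

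Taken alone, the interval between days 20-25 and days 40-45 gave 7 probes (0.0586% of those tested), 2 higher and 5 lower, with 1152 at an unadjusted p under 0.05. The higher ones were PTGER3 and ABR7215, and OXT and ESR2 were among the lower. ESR2 was well above background on 0 arrays of days 20-25 and 0 of days 40-45, so its step lies wholly among dim signals. With quantile normalization 3 passed, 2 higher and 1 lower. The other lower ones, named after their values were seen, were FNDC5, the precursor of the circulating peptide irisin, and the unnamed ABR4875 and ABR5003. FNDC5 had group means of -4.19 ± 0.25, -3.08 ± 0.57, -4.13 ± 0.51 and -4.21 ± 0.61 (SD, n = 4 each), higher on days 20-25 than before or after. Its step of -1.04 (adjusted p = 0.046) reversed the preceding one of 1.10 (adjusted p = 0.0112). The same shape was seen in ABR4875, with 1.10 and then -1.07. The interval before gave 78 probes (0.653%), 66 higher and 12 lower, and the interval after gave 13 (0.109%), 8 higher and 5 lower. Single arrays moved these counts: the 7 became between 0 and 9 in the fits that each left out 1 of the 16 arrays, and over 1.5 times fewer or more in 15 of them. The 78 became between 11, without days 20-25 replicate 3, and 164, without cyclic replicate 1. The 13 became between 2 and 29, the latter without days 150-160 replicate 3. The 78 and the 13 moved by more than 1.5 times in 10 and 11 of the 16 fits.

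Gene lists were compared on 5731 genes, with the probe of highest mean signal for each gene, of which 147 were called higher (2.56%) and 224 lower (3.91%) with a median difference of -0.01. Of 19 genes of steroid production, the gland's main output, 1 was higher and 1 lower, with a median of 0.18. HSD3B1, which makes progesterone from pregnenolone, rose by 0.44 (SE 0.11, adjusted p = 0.026). Its levels were 6.75, 6.67, 7.62 and 7.10, then 6.76, 6.6, 7.22 and 7.24, then 7.13, 7.13, 7.67 and 7.82 and then 7.48, 7.36, 7.35 and 7.58. The sides overlapped, and the call was lost with no slide term and in 4 of the 16 fits that each left out 1 array. HSD11B1, which interconverts cortisone and cortisol, fell (-1.15 ± 0.31 (SE), adjusted p = 0.0418), a call lost in 13 of the 16. STAR, which carries cholesterol into mitochondria, CYP11A1, which cleaves its side chain, and LHCGR, the receptor for luteinising hormone, had values of 0.11, 0.18 and 0.18 with adjusted p of 0.674, 0.213 and 0.778. STAR was -0.30 within slide 2, and LHCGR was -0.03 within slide 1 and -0.04 without cyclic replicate 2, so neither has a settled direction. The 2 calls of the list became between 0 and 3 without single arrays. Of 16 genes of cholesterol synthesis, uptake and export 0 passed, with 13 above 0 and a median of 0.23.

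Prostaglandin genes moved in both directions: of 19 tested 3 were higher and 2 lower, with a median of -0.14 that was 0.04 with normexp background correction. Besides PTGER3, the receptor for prostaglandin F2 alpha, PTGFR, rose (0.61 ± 0.14 (SE), adjusted p = 0.0227). Its levels were 3.84, 3.40, 4.71 and 4.28 in cyclic cows, 4.02, 4.03, 4.11 and 4.08 on days 20-25, 4.40, 4.48, 4.33 and 4.49 on days 40-45 and 4.87, 5.13, 4.83 and 4.81 on days 150-160. The prostaglandin carrier SLCO2A1 was at 0.70 ± 0.18 (SE), adjusted p = 0.0395. The lower genes were AKR1B1, an aldose reductase that makes prostaglandin F2 alpha in cattle (-0.54 ± 0.12 (SE), adjusted p = 0.0192), and PLA2G4A, the phospholipase that frees arachidonic acid (-1.03 ± 0.16 (SE), adjusted p = 0.00324). PLA2G4A was well above background on 5 early arrays and 1 late one, and with dim signals raised its difference was -0.11. PTGFR differed by 0.90 within slide 1 and 0.32 within slide 2, and its call was lost in 3 of the 16 fits without 1 array. The 5 calls of the list became 3 without days 40-45 replicate 1 or days 150-160 replicate 2.

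Of 23 peptide hormones and hormone receptors 3 were higher, 3 lower, and the median was -0.19. PRLR, the prolactin receptor, rose without overlap of the sides, from -2.30 to 1.18 to 1.37 to 2.15 (1.75 ± 0.37 (SE), adjusted p = 0.015), with group means of -0.78, 0.78, 1.57 and 1.93. PENK, the enkephalin precursor, rose (3.35 ± 0.70 (SE), adjusted p = 0.0149), with its largest difference after day 45 (group means -5.24, -2.93, -2.22 and 0.76). FST, follistatin, which binds activin, was higher (0.79 ± 0.20 (SE), adjusted p = 0.0319) and INHA, the inhibin alpha subunit, lower (-1.52 ± 0.41 (SE), adjusted p = 0.0428). INHA had means of 2.05 and 2.12 early and 0.76 and 0.36 late, the sides overlapped, and the difference between days 20-25 and 40-45 alone did not pass (adjusted p = 0.475). FST lost its call in 7 of the 16 fits without 1 array and PENK in none. The call of PENK was lost within each slide and with side in place of group. Its sides overlapped, with levels of -7.45 to -0.77 early and -4.67 to 1.53 late.

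In the insulin-like growth factor system, of 14 genes tested 2 rose and 2 fell, with a median of 0.13. IGF2 was lower in each group than in the one before, with means of 0.00, -0.56, -1.24 and -2.02 (-1.35 ± 0.21 (SE), adjusted p = 0.00342), and the binding protein IGFBP5 fell too (-1.28 ± 0.29 (SE), adjusted p = 0.0206). IGFBP6, a binding protein with preference for IGF2, rose (1.11 ± 0.12 (SE), adjusted p = 0.000401), as did SOCS2, which restrains growth hormone signalling (1.04 ± 0.15 (SE), adjusted p = 0.00195). For both the largest difference between neighbouring means lay before day 25: IGFBP6 had means of 1.18, 2.37, 2.69 and 3.08, and SOCS2 had -0.09, 1.28, 1.57 and 1.71.

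Of 20 genes of dividing cells all 20 had a difference below 0, against 3042 of the 5731 genes tested, 4 of them called lower and 0 higher, with a median of -0.78. AURKB, the kinase aurora B, had levels of -1.09, -2.02, -2.0 and -1.96 in cyclic cows and -2.35, -2.61, -3.23 and -2.08 on days 20-25. It had -3.73, -3.71, -4.0 and -2.93 on days 40-45 and -3.68, -4.38, -4.43 and -4.31 on days 150-160. A single early gland, days 20-25 replicate 3, lay below the highest late one (-1.73 ± 0.21 (SE), adjusted p = 0.00066). CCNB2, cyclin B2, was at -1.49 ± 0.32 (SE), adjusted p = 0.0168, PRC1, which organises the dividing spindle, at -1.19 ± 0.27 (SE), adjusted p = 0.021, and CENPF, a centromere protein, at -1.33 ± 0.37 (SE), adjusted p = 0.0469. The median step was -0.52 between days 20-25 and 40-45, after -0.08 before and ahead of -0.32 after. In slide 1 alone the list had a median of -1.13 and in slide 2 alone one of -0.35, and the count of calls ranged from 3 to 7 with single arrays left out. Of 25 apoptosis genes 4 were called, all lower. They included BCL2, which protects cells (-0.66 ± 0.16 (SE), adjusted p = 0.0268, lost in 5 of the 16 fits without 1 array; another probe gave -0.58 and adjusted p = 0.12), and BAK1 and CASP6, which take part in cell death (-0.65 and -0.58). The list median was -0.24, and its calls became between 2 and 6 without single arrays.

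Of 29 matrix genes 9 were called, all lower, with a median of -0.29 and 21 of 29 below 0. COL1A2, a chain of type I collagen, had levels of 0.46, -0.02, -1.17 and -0.37 in cyclic cows and 0.59, -0.36, -0.50 and 0.58 on days 20-25. It had -1.57, -1.16, -1.38 and -0.28 on days 40-45 and -2.18, -3.50, -2.82 and -3.46 on days 150-160 (-1.95 ± 0.29 (SE), adjusted p = 0.00253). The largest difference between neighbouring means lay after day 45, and the early levels overlapped those of days 40-45. COL1A1 (-1.38), COL3A1 (-0.92), VCAN, the proteoglycan versican (-1.73), LOXL1, a crosslinker (-1.10), and COL4A3 (-1.12) were called too. COL4A1, of basement membrane, fell without overlap, from -4.26 to -3.32 to -5.23 to -4.36 (-0.89 ± 0.14 (SE), adjusted p = 0.00288), and so did SPARC, whose sides met at 5.72 to 2 decimals (-0.60 ± 0.14 (SE), adjusted p = 0.0209). FN1, fibronectin, was called too, with its largest difference after day 45 and means of 1.46, 1.11, 0.76 and -0.49 (-1.15 ± 0.17 (SE), adjusted p = 0.00273). The 9 calls became 4 without days 150-160 replicate 2, moved by more than 1.5 times in 6 of the 16 fits without 1 array, and were 2 and 0 within slides 1 and 2. Of 22 proteases and inhibitors 1 rose, SERPINA1, and 1 fell, MMP2, a gelatinase, with a list median of -0.30. The fall of MMP2 was -0.80 ± 0.20 (SE), adjusted p = 0.0301, a call lost in 8 of the 16 fits without 1 array.

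Of 15 macrophage markers tested 4 were called lower and 0 higher, with a median of -0.58. Values above 0 were those of 3 markers, C1QB at 0.05, FCGR3A at 0.14 and ITGAM, an integrin that granulocytes also carry, at 1.61 (adjusted p = 0.0961). CD68, a lysosomal glycoprotein, had levels of -1.17, -1.03, -2.32 and -1.82, then -2.43, -2.11, -2.23 and -2.61, then -3.24, -2.89, -2.50 and -2.99 and then -2.90, -2.90, -3.36 and -3.47 (-1.07 ± 0.17 (SE), adjusted p = 0.00332), and the lowest early gland lay below the highest late one. MRC1, the mannose receptor, was at -0.86 ± 0.18 (SE), adjusted p = 0.015, FCGR1A, a high-affinity antibody receptor, at -1.14 ± 0.21 (SE), adjusted p = 0.00861, and VSIG4 at the value given above. The call of FCGR1A was lost with no slide term (adjusted p = 0.0544) and with normexp background correction (-0.48, adjusted p = 0.072). Summed over the list, the signal relative to the 75th percentile was 11.2 to 26.2 in cyclic glands, 9.68 to 17.5 on days 20-25, 9.35 to 16.1 on days 40-45 and 9.19 to 19.1 on days 150-160. These sums overlapped between the sides, and 12 of the 15 markers were well above background on all 16 arrays.

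Of 13 granulocyte markers 3 were lower late, the antimicrobial peptides CATHL4 (-1.92 ± 0.24 (SE), adjusted p = 0.000963), BNBD-5 (-1.26 ± 0.22 (SE), adjusted p = 0.00572) and CATHL3 (-1.09 ± 0.28 (SE), adjusted p = 0.0389), with a list median of -0.86. The cyclic glands were the high ones: BNBD-5 had means of -4.40, -6.88, -7.06 and -6.75, and CATHL4 -5.33, -8.70, -9.13 and -8.74. CATHL3 and CATHL4 were well above background on 3 and 4 early arrays and on 0 late ones, so their late levels are only bounds. With dim signals raised CATHL4 was -0.64 and CATHL3 -0.12, and neither passed (adjusted p = 0.137 and 0.735), while BNBD-5 was -1.06 (adjusted p = 0.0147). The call of BNBD-5 was lost with normexp background correction, and the call of CATHL3 was lost in 14 of the 16 fits without 1 array. With normexp background correction the list median was -0.28, and with dim signals raised it was -0.34. Of 21 T, NK and B cell markers 2 were lower, the antibody genes IGG1C (-1.87 ± 0.40 (SE), adjusted p = 0.0161) and JCHAIN (-0.85 ± 0.21 (SE), adjusted p = 0.0338, lost in 11 of the 16 fits without 1 array), with a list median of -0.09. Of 10 MHC class II genes 0 passed, with a median of -0.33. The chemokine XCL1, lymphotactin, was lower (-2.21 ± 0.47 (SE), adjusted p = 0.0161), with levels of 0.91, 1.72, -1.35 and -0.25 in cyclic cows against -2.27, -2.17, -3.69 and -3.12 on days 20-25. It had -3.97, -4.25, -2.61 and -1.80 on days 40-45 and -3.91, -4.16, -4.27 and -2.89 on days 150-160, and again the cyclic glands were the high ones. The difference was -3.62 within slide 1 and -0.79 within slide 2. Of 23 chemokine ligands and receptors 1 was higher, CCL11, and 1 lower, XCL1, with a list median of -0.24 that was 0.15 within slide 1.

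Of 24 interferon-stimulated genes, which interferon tau is known to induce, 2 passed as higher on days 20-25 than in cyclic cows and 0 in either later interval. The median difference was 0.72 for days 20-25 minus cyclic, -0.70 for days 40-45 minus days 20-25 and -0.03 after that. Late against early 3 were lower and 0 higher, with a median of -0.40. ISG15, a ubiquitin-like protein induced by interferon, had levels of 0.25, 1.00, 2.90 and 2.17 in cyclic cows, 2.90, 2.76, 3.20 and 2.99 on days 20-25, 1.32, 1.58, 0.48 and 0.48 on days 40-45 and 0.75, 0.73, 0.34 and 1.42 on days 150-160. All 4 glands of days 20-25 lay above all 8 late ones, and the cyclic glands spanned the range (-1.38 ± 0.32 (SE), adjusted p = 0.0236). MX2, an antiviral GTPase (-0.54 ± 0.13 (SE), adjusted p = 0.0301), and PSMB9, an immunoproteasome subunit (-0.50 ± 0.12 (SE), adjusted p = 0.0327), were the others called. The calls of MX2 and PSMB9 were lost in 7 and 10 of the 16 fits without 1 array, that of MX2 also with normexp background correction and that of PSMB9 with no slide term, and that of ISG15 in 1, without days 40-45 replicate 3. ISG15 differed by -0.63 within slide 1 and -2.14 within slide 2.

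Of 18 complement genes 5 were called higher and 1 lower, with a median of 0.20. The higher ones were C1R and C1S, the proteases of the first component (0.90 ± 0.13 (SE), adjusted p = 0.00228, and 0.71 ± 0.15 (SE), adjusted p = 0.0152), C7, of the attack complex (1.09), and the inhibitors CD59 (0.84 ± 0.13 (SE), adjusted p = 0.00356) and SERPING1 (0.85). C1R had means of 0.75, 1.15, 1.61 and 2.09, a climb with no single step. C2 was lower (-0.72). The 6 calls became 3 without cyclic replicate 4 or days 20-25 replicate 1.

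Of 22 endothelial markers 0 passed (median 0.01) and of 15 pericyte and smooth muscle markers 1 did, KCNJ8, a potassium channel subunit (-0.58), with a median of 0.15. Of 22 angiogenic and vasoactive factors 2 were higher with a list median of 0.05, FGF1, a fibroblast growth factor (0.66 ± 0.14 (SE), adjusted p = 0.015), and ACE, angiotensin-converting enzyme (0.64 ± 0.14 (SE), adjusted p = 0.0166, lost with normexp background correction). Immediate early and stress genes had 3 of 23 higher and a median of 0.35, with CCN1, a matricellular protein (1.92 ± 0.42 (SE), adjusted p = 0.017), HSPA1A, a heat-shock chaperone (0.83 ± 0.15 (SE), adjusted p = 0.00809), and GADD45B (0.81 ± 0.20 (SE), adjusted p = 0.032, lost in 6 of the 16 fits without 1 array). Another probe of HSPA1A gave 0.72 and did not pass (adjusted p = 0.148). Oxidative phosphorylation had 62 of 71 genes below 0, against 3042 of the 5731 genes tested, but a median of -0.15. It had 5 calls, all lower, where 224 of the 5731 genes (3.91%) were called lower. The 5, UQCR11, NDUFA3, NDUFB1, NDUFA9 and COX5B, lay between -0.33 and -0.27. Their count became between 0 and 7 without single arrays.

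Of 19 epithelial membrane and junction genes 3 were higher, CLDN10, ANXA8L1 and MAL, a membrane raft protein (2.17 ± 0.38 (SE), adjusted p = 0.00572), with a list median of 0.09. The lists were drawn up with earlier results of these data known, so their calls are not independent evidence of a direction. Of 12 neuronal and secretory granule genes 2 were higher, PENK and NEFM, and 1 lower, with a median of -0.22. NPTX2, neuronal pentraxin 2, fell from means of -1.74 and -4.94 to -7.98 and -7.81 (-4.56 ± 0.77 (SE), adjusted p = 0.00502), and was well above background on 2 late arrays. With dim signals raised its difference was -3.26 (limma, adjusted p = 0.0084). NEFM, a neurofilament, was above background on 1 early array and 4 late ones, all of days 150-160, and its call (2.07 ± 0.53 (SE), adjusted p = 0.0367) was lost in 13 of the 16 fits without 1 array. Of 16 granulosa, theca and oocyte markers 1 was higher, FST, and 3 lower, INHA, TNFAIP6 and ZP2, an egg-coat protein (-0.87 ± 0.20 (SE), adjusted p = 0.0236, with its largest difference after day 45), and the list median was -0.27. Their 4 calls became 1 without days 40-45 replicate 1 or days 150-160 replicate 2. Antioxidant enzymes had 1 call of 23, GPX3, a secreted peroxidase (0.89), with a median of -0.01, and adipocyte and lipid droplet genes 1 of 15, CD36, a fatty acid carrier (-1.68), with a median of 0.02. Of 4 red blood cell genes 0 passed, with a median of 0.02.

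Summed marker signals also overlapped between the sides for the other cell types: 43.2 to 66.5 early and 44.6 to 76.8 late for endothelial markers, 30.8 to 57.7 and 32.0 to 67.8 for pericytes and smooth muscle, and 2.0 to 8.67 and 1.73 to 4.04 for granulocytes. For T, NK and B cells the sums were 3.29 to 6.48 early and 2.65 to 8.93 late, and for granulosa, theca and oocyte markers 43.9 to 110 early and 37.2 to 177 late. Of the markers 7 of 13 for granulocytes, 12 of 15 for macrophages, 16 of 21 for lymphocytes and 19 of 22 for endothelium were well above background on all 16 arrays. The part of cell composition in the falls of matrix, dividing-cell and immune genes was not tested.

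**Figure D4:**
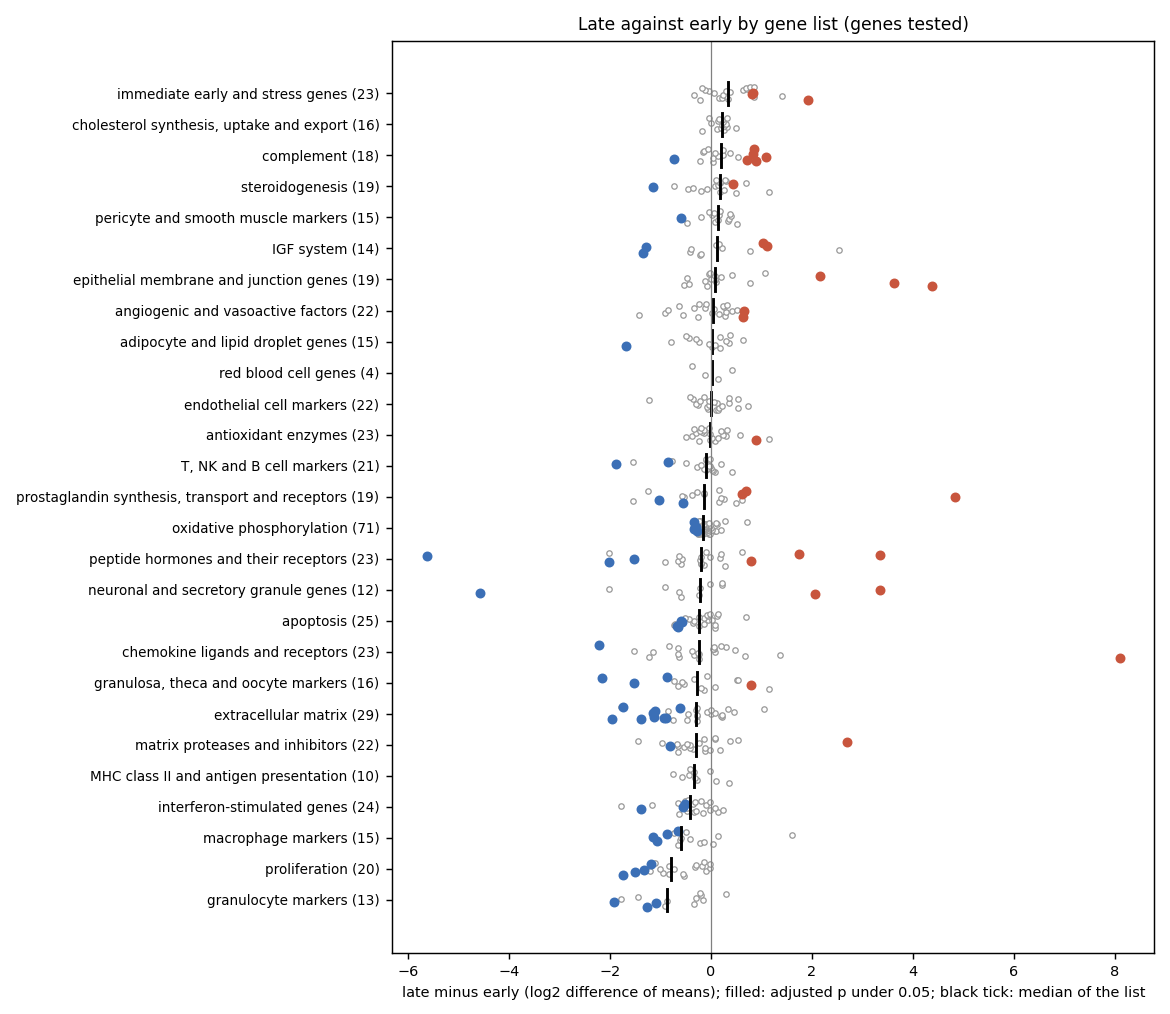
Late minus early difference (x axis, log2) of every gene tested in 27 lists (y axis, with the number tested), sorted by the median. Red filled points are called higher, blue filled ones called lower, open ones did not pass, and black ticks are medians; granulocyte markers (-0.86) and proliferation (-0.78) have the lowest medians and immediate early and stress genes (0.35) the highest.

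**Figure D5:**
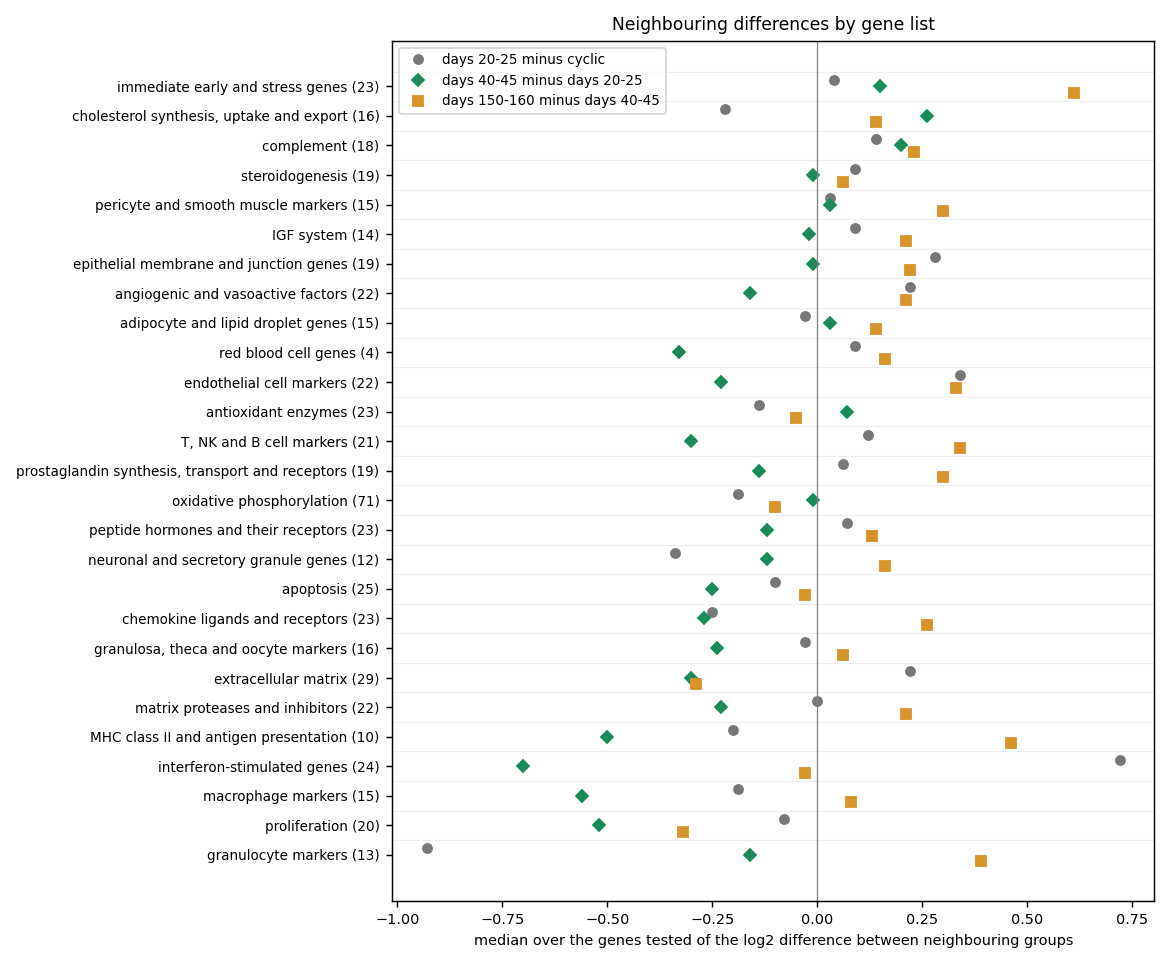
Median log2 difference between neighbouring groups (x axis) for the same 27 lists (y axis, with the number tested): grey circles days 20-25 minus cyclic, green diamonds days 40-45 minus days 20-25, orange squares days 150-160 minus days 40-45. Interferon-stimulated genes go from 0.72 to -0.70. The lowest median of the granulocyte markers is that of days 20-25 minus cyclic (-0.93, with 5 of 13 called lower, against 12 of all 11940 probes). Of those 13 markers 7 were well above background on all 16 arrays. The lowest median of the macrophage markers is that of days 40-45 minus days 20-25 (-0.56, with 0 of 15 called).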

How the data were processed

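Whole-gland RNA of 16 cows was measured on 16 Agilent 1-colour arrays, Cy3-labelled by linear amplification per the labels' protocols. Intensity values are the deposited processed signals, which per the file headers are background-subtracted, detrended and made with Agilent Feature Extraction, version 9.5 per the submitters' processing notes. The deposited value table holds log2 values with no scaling stated; its columns departed by at most 0.0046 from the processed signals scaled as here, with medians of -3.18 to -2.98, and it served as an alternative. All columns used belong to a sample (0 unused). Signals were divided by each array's 75th percentile over 15208 probes, after removing 536 control spots, and taken to log2; 220 outlier spots were set missing. Testing was limited to the 11940 probes that, in some group, had 3 or more of the 4 arrays well above background without an outlier flag, and that had a value in every group. Probes of 1 gene were not averaged: the gene lists use the probe with the highest mean signal.

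The 4 groups with slide as a block (2 slides, 2 arrays of each group on each) were fitted with limma 3.58.1 in R 4.3.3. Late minus early is the mean of the late group means minus the mean of the early ones, with Benjamini-Hochberg adjustment over the probes tested and a call at an adjusted p under 0.05. A switch that held needed a call, all 4 cross-side group differences of 1 sign and at least 2-fold, no overlap of 8 and 8 arrays, and both within-side differences under 50% of the middle step. Named were up to 15 such probes each way, up to 5 gradual ones each way, in each list with 2 or more calls the 3 or fewer with the lowest adjusted p, and always STAR, CYP11A1, HSD3B1, LHCGR, PTGFR, OXT, PTGER3, CCL11 and XCL1; others were named after their values were seen. A bound of "at least" sets the dim side at each array's lowest signal above background, or its own if higher. Members and lists were chosen with earlier results of these data known. The fit was checked on simulated data. Of the array's probes 8091 have no symbol; the rest were named through RefSeq (ARS-UCD2.0 names, no coordinates) by accession, gene ID, symbol or the array's description. Genome, promoter and protein sequences were not used here. Alternatives were slide terms, background correction, scaling, filters, limits and leaving out each array.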

Additional observations from a re-analysis of the deposited data

Results flagged for a closer look

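Among 73 genes and probes in 4 groups each, 19 of 292 groups (6.51%) held a gland whose gap to the nearest of the other 3 was above Dixon's 95% critical share of the group's range, where chance gives about 1 in 20. Values are levels of that gland against the range of the other 3.

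Among the probes that switched or moved gradually, PTGER3 on days 40-45 was high in replicate 1 (-0.66 against -1.64 to -1.50), the late gland farthest from the early side in its group. SERPINA1 in cyclic replicate 1 was -9.39 against -8.18 to -7.94. ESR2 in cyclic replicate 3 was -7.14 against -6.40 to -6.35, the only cyclic gland of ESR2 not well above background. ABR4402 on days 150-160 in replicate 4 was -7.40 against -8.70 to -8.50. DAPL1 was -8.39 against -7.21 to -6.97 on days 20-25 in replicate 2 and -2.16 against -3.77 to -3.55 on days 150-160 in replicate 1. ADAMTSL3 in cyclic replicate 2 was -3.70 against -2.19 to -2.04.

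Among genes of the lists, AURKB stood apart in cyclic replicate 1 (-1.09 against -2.02 to -1.96) and in replicate 1 of days 150-160 (-3.68 against -4.43 to -4.31), and CCNB2 in replicate 4 of days 40-45 (-3.46 against -4.53 to -4.38). UQCR11 did so in cyclic replicate 2 (3.61 against 4.01 to 4.06) and in replicate 4 of days 20-25 (3.69 against 3.48 to 3.50), and NDUFB1 in the same cyclic gland (3.30 against 3.44 to 3.46). That gland also held NEFM at -5.65 against -9.39 to -9.08. FN1 in replicate 4 of days 20-25 was 1.58 against 0.93 to 1.00, IGF2 in replicate 3 -1.34 against -0.35 to -0.23 and CATHL4 in replicate 1 -9.32 against -8.54 to -8.44. On days 40-45, HSPA1A in replicate 3 was 2.38 against 2.95 to 3.06 and FST in replicate 4 4.26 against 4.89 to 5.0.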

How the results depend on the processing

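The 742 probes called late against early became 121 within slide 1, 7 within slide 2, 452 with side in place of group, 1290 with array weights, and 450 to 859 without single arrays; 42% were higher, against 58.7% and 57.1% within slides 1 and 2. The 10 that switched and held became 4 and 20 with a limit on within-side movement of 0.25 and of the whole step, 2 with a 4-fold size limit, 21 with no size limit (added after seeing the data), 0 within slide 2 and 9 to 19 without single arrays. The 13 gradual probes became 33 within slide 1, 4 within slide 2, 4 with normexp, 3 among probes above background on all arrays, and 11 to 19 without single arrays. Without the slide term the 3 neighbouring comparisons gave 35, 4 and 5 in place of 78, 7 and 13, and without single arrays (added after seeing the data) 11 to 164, 0 to 9 and 2 to 29. The 7 were 3 with quantile normalization and 4 with the percentile over probes above background on all arrays. LHCGR turned to -0.0298 within slide 1 and ranged from -0.0367 (without cyclic replicate 2) to 0.384 without single arrays, and STAR to -0.30 within slide 2. The causes were not tested, except that fits within a slide hold 8 arrays.

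With replicate number as a block, 637 probes were called late against early, 39 in the first neighbouring comparison and 0 in the second. Deviations of same-numbered glands correlated at 0 to 0.29 (mean 0.11, 24 pairs), against 0.06 on average for other numbers on the slide and -0.09 across slides. Same-numbered glands share a number and a slide, and a further link between them was not tested. Of all comparisons of single genes with an alternative, 1801 kept direction and side of the threshold and 290 kept direction only. Signals near background limit ESR2, ABR4402, CATHL3, CATHL4, PLA2G4A, CLDN10, SERPINA1, ABR5060, DAPL1, CCL11, NEFM, NPTX2 and HDAC2, among others. Slide row and side cannot be told apart.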
